A study of Mus musculus with 4 samples.

Results

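Genes that nearly all tissues use but that mature beta cells keep low are called disallowed genes, and 10 of them were followed here in mouse pancreatic islets with and without the retinoblastoma gene Rb1. They are Ldha, Slc16a1, Hk1, Hk2, Rest, Acot7, Oat, Igfbp4, Cat and Lmo4. They were taken by name, and every probe whose accession belongs to 1 of them was used, which gave 15 probes for the 10 genes among 56605 probes on the array. All 10 genes passed the filter on dim probes and so stood among the 26378 genes tested, a count that includes transcripts without a symbol.

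The series holds 4 single-colour arrays, 1 for the isolated islets of each of 4 mice, labelled with the dye Cy3. The 2 control mice had the genotype Pdx1-Cre, which the titles call wild type although they carry the Cre transgene. The 2 Rb-deficient mice had the genotype Pdx1-Cre:Rbf/f. Cre recombinase was thus common to both groups and the floxed Rb alleles set them apart. Pdx1-Cre acts in the pancreatic lineage, so that exocrine as well as endocrine cells can lose Rb1, while blood vessel, stromal and immune cells in an islet preparation are outside that lineage. The age and sex of the mice are not given in the sources used here.

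In a mature beta cell, glucose is meant to be burned in mitochondria, and the ATP it yields triggers insulin release. The disallowed genes act against this coupling in several ways. Lactate dehydrogenase A and the lactate and pyruvate carrier MCT1 would divert pyruvate or let it enter from the blood, and hexokinases of high affinity would respond to glucose at levels where insulin should stay off. In humans, promoter mutations that turn on MCT1 in beta cells cause insulin release during exercise. Other members are a repressor of neuronal genes, enzymes of fatty acid, ornithine and peroxide metabolism, an IGF binding protein and a LIM-only adaptor. In whole islets these transcripts also come from cells other than beta cells, and in such bulk samples fewer cells of a type and less RNA per cell cannot be told apart.

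The arrays were alike in most genes but not in all respects. Control array 1 had 76.5% of probes well above background, against 59.0% to 59.9% on the other 3. The scale used throughout is log2 of the processed signal minus the 75th percentile of the array. Xist, the RNA that coats the silenced X, had a value of -7.40 on control array 1 and values between -1.35 and -0.65 on the others. Control array 1 thus stood apart in a sex-linked RNA. The part of sex in the values of the disallowed genes was not tested. Ins2, an insulin gene, lay between 9.89 and 10.45 on the 4 arrays. Cela2a, a digestive enzyme gene of acinar cells, was nearly as high, between 9.66 and 10.42. The preparations thus held much exocrine RNA beside that of islet cells. The brighter probe of Rb1 itself read 0.28 and 0.86 in the control mice and -0.48 and -0.90 in the Rb-deficient mice. Whether that probe lies in the deleted part is not known here. The acinar markers, 13 genes of digestive enzymes and their regulators, were all highest on control array 1. Their summed linear signal, relative to the 75th percentile, was 9102 and 7425 in the control mice, against 6902 and 4121 in the Rb-deficient mice. The same sum over 9 beta cell markers was 3445 and 3067 in the control mice, against 3314 and 2336 in the Rb-deficient mice. The part of exocrine RNA in the values of the disallowed genes was not tested.

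None of the disallowed genes passed the test. Their limma p values, adjusted by Benjamini-Hochberg across the whole table of 26378 genes, lay between 0.863 and 0.997, and the smallest unadjusted p was 0.117. Over all genes the same test called 0, or 0% of them, and 1493 genes, or 5.66%, had an unadjusted p under 0.05, where the disallowed genes had 0 of 10. Of the 10, 7 had a lower mean in Rb-deficient islets, where 58.1% of all genes did. The median log2 difference of the 10 genes, Rb-deficient minus control, was -0.31, beside -0.07 for all genes tested. Scaling to the array median instead of the 75th percentile moved these medians to 0.13 and 0.37. A lower mean was then seen for 4 of 10 genes, beside 6520 of all 26378 genes. With quantile normalization 11945 of all genes had a lower mean. List counts given below for these scalings are to be read beside those numbers. Median scaling moves all genes by the same amount, so the 7 of 10 genes below the all-gene median are the same genes there by construction. The count below that median was 5 of 10 with no filter on dim probes. Leaving out Rb-deficient array 1 gave 5 of 10, and leaving out control array 2 with the filter applied anew gave 4 of 10.

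The spread between the arrays of a group was as large as most of these differences. For 8 of the 10 genes the difference of the group means was smaller than the larger gap between the 2 arrays of a group, and this held for 77.4% of all genes. The 2 exceptions were Rest and Lmo4. For 3 genes, Rest, Oat and Cat, the groups did not overlap and the Rb-deficient values were the lower ones, as for 20.7% of all genes. For 1 gene, Lmo4, the Rb-deficient values were the higher ones without overlap, as for 15.3% of all genes. In a list of 10 neither count is read as a result about the list. With median scaling the groups of Rest, Oat and Cat overlapped, while Lmo4 stayed higher without overlap. At least 2-fold differences numbered 0 of 10, where 8.03% of all genes were that much lower and 1.7% that much higher. Even so, on the scale used throughout, the 95% interval reached past 2-fold in either direction for 6 of the 10 genes. The arrays thus do not show that those 6 genes were alike. This counts only the brightest probe of each gene. The intervals of the second probes of Ldha and Igfbp4 reached past 2-fold as well. The narrower intervals of Ldha, Acot7, Igfbp4 and Lmo4 hold for that scale only. With median scaling these genes differed by 0.28, 0.22, 0.44 and 0.60. Intervals are not given for that scaling, so it is not shown there that these genes were alike.

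**Figure D1:**
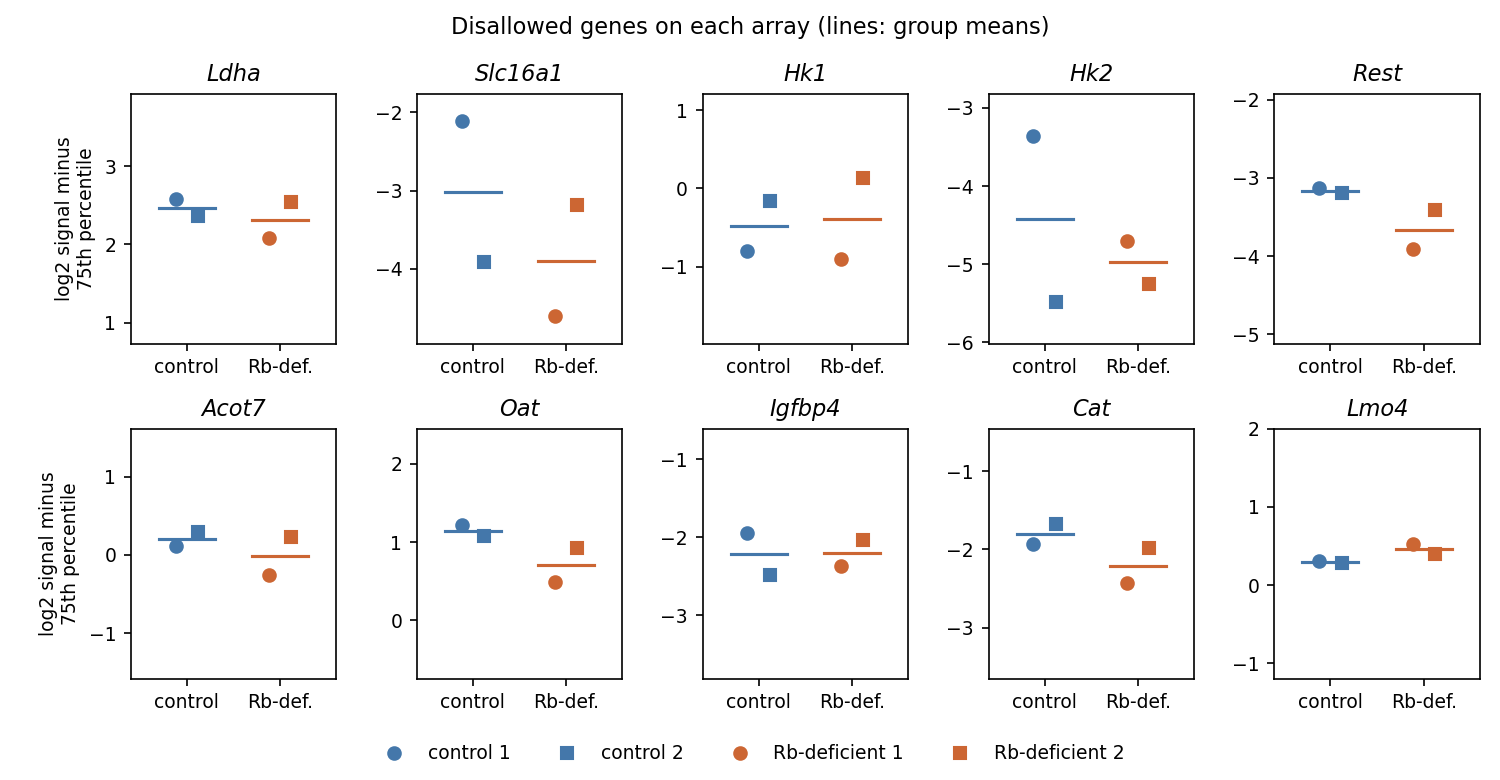
Each panel shows 1 disallowed gene, with the log2 signal minus the array's 75th percentile on the vertical axis, over a range of equal length in every panel, and the 2 control and 2 Rb-deficient arrays as points. Horizontal lines are group means. The groups overlap for 6 genes, while Rest, Oat and Cat lie lower and Lmo4 lies higher in both Rb-deficient mice.

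The way pyruvate leaves the cell was represented by Ldha and Slc16a1. Ldha encodes the muscle type subunit of lactate dehydrogenase, which turns pyruvate into lactate. Its brighter probe read 2.58 and 2.36 in the control mice, against 2.08 and 2.54 in the Rb-deficient mice. Rb-deficient array 1 was the lowest of the 4 and array 2 lay between the controls, so the groups overlapped. The group means were 2.47 ± 0.15 and 2.31 ± 0.33 (SD, n = 2 each), a log2 difference of -0.16 with a 95% interval from -0.87 to 0.55 (limma, adjusted p 0.895). A 2-fold change in either direction is outside this interval. The second Ldha probe, for the same accession, read -2.37 and -3.04 in controls and -3.36 and -3.07 in Rb-deficient islets, a difference of -0.51. Its interval, from -1.38 to 0.36, does hold a 2-fold decrease. The difference of the brighter probe turned to 0.28 when arrays were scaled to their medians and to 0.07 without Rb-deficient array 1.

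Slc16a1 encodes MCT1, the carrier that moves lactate and pyruvate across the plasma membrane. Its larger gap within a group was exceeded in the list only by that of Hk2, with -2.12 and -3.92 in the control mice, against -4.60 and -3.19 in the Rb-deficient mice. The control gap of 1.80 and the Rb-deficient gap of 1.42 both exceeded the difference of the means, which was -0.88 with an interval from -3.27 to 1.51 (limma, adjusted p 0.866). This was the largest difference in the list and also the one with the largest standard error, 0.85. Without control array 1, the array with more probes above background, the difference was 0.02.

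The promoters of Ldha and Slc16a1 are shown because both genes hold the E-box CACGTG, the site known for Myc and related factors. Both had their lowest signal on Rb-deficient array 1, but so did Hk1, Acot7, Oat and Cat, whose promoter windows hold no E-box. A link between the site and the signal was not tested. The windows are the 250 bases before a RefSeq start site on GRCm38.p6, read 5′ to 3′ on the strand of the gene, and capitals mark CACGTG and ACGTG, the latter the core of the hypoxia response element, on either strand. The Ldha window lies at chr7:46845554-46845803 on the plus strand and the Slc16a1 window at chr3:104638414-104638663 on the plus strand.
Ldha: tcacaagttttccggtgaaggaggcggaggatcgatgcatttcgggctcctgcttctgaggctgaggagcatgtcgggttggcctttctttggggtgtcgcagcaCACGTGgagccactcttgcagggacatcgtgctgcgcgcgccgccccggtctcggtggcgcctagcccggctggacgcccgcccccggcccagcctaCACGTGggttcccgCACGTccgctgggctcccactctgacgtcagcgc
Slc16a1: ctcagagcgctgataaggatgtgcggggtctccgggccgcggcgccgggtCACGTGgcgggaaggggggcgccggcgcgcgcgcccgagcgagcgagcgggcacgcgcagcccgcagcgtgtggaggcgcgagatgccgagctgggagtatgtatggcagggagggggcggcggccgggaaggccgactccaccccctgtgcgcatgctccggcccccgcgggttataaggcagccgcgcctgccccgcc
Ldha has 2 windows in the table, and the one not shown holds neither motif. In the window shown the E-boxes begin 145 and 48 bases before the start, and in Slc16a1 the E-box begins 200 bases before it. The table holds 13 windows for 9 of the 10 genes. CACGTG, searched on both strands, was found in 2 of the 13 windows and in 6.02% of all 32851 windows. ACGTG, which every CACGTG contains, was found in 5 of the 13 windows, of the genes Ldha, Slc16a1, Hk2 and Lmo4, and in 16.6% of all windows. Of these 5, 2 are overlapping Lmo4 windows that hold the same site, which is thus counted in both. The E2F site, spelled TTTCGCGC or TTTGGCGC on both strands, was searched because Rb holds E2F factors in check. It was in none of the 13 windows and in 0.654% of all windows. At that share most sets of 13 windows would hold none, so its absence is not read as a result. GGGCGG, the GC box, was found in 8 of the 13 windows and in 32.7% of all windows. The overlapping Lmo4 windows share their GC boxes as well. The G and C content of the 13 windows ran from 49.6% to 82.4%, beside a median of 52.4% over all windows. The shares were not matched for it, so these counts are not read as a result about the list.

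No relative of the pair passed the adjusted test. All 4 measured genes of the lactate dehydrogenase family had a lower mean in Rb-deficient islets, 1 of 4 under median scaling. Ldhb, the heart type subunit, differed by -0.20, and Ldhd, the enzyme for D-lactate, by -0.19. Ldhal6b, a relative of Ldha, read -3.70 and -4.45 in controls and -4.89 and -5.21 in Rb-deficient islets, a difference of -0.98 (limma, unadjusted p 0.048, adjusted p 0.863). Of 8 genes of monocarboxylate and pyruvate transport, 3 were lower in mean, 1 with median scaling, and 0 passed. Slc16a8, another carrier gene of the family, differed by -0.39 and Emb, embigin, a chaperone of such carriers, by 0.39, both without overlap of the groups, in opposite directions. Slc16a3, the gene of the lactate exporter MCT4, differed by 0.12, and Mpc1, a subunit of the mitochondrial pyruvate carrier, by 0.11.

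Glucose phosphorylation was represented by Hk1 and Hk2, hexokinases of high affinity. Hk1 read -0.80 and -0.17 in the control mice, against -0.90 and 0.13 in the Rb-deficient mice in its brighter probe. The lowest and the highest of the 4 values were both Rb-deficient. The group means were -0.48 ± 0.45 and -0.39 ± 0.73 (SD, n = 2 each), a difference of 0.10 with an interval from -1.23 to 1.42 (limma, adjusted p 0.968). The sign of this difference rested on single arrays, with -0.42 without Rb-deficient array 2, 0.61 without array 1 and -0.22 without control array 1.

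The second Hk1 probe was annotated to another accession and did not follow the first. It read -3.03 and -4.90 in the control mice, against -5.16 and -4.98 in the Rb-deficient mice, a difference of -1.11 with a standard error of 0.70. Control array 1 stood alone there, the other 3 values lay close together, and on Rb-deficient array 1 the probe was not well above background. On the 4 arrays the dimmest probes still well above background had values of -5.46 to -5.21, so that this probe was near the limit of measurement on all but control array 1. Averaging both probes turned the Hk1 difference to -0.50.

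The sequences before the 2 Hk1 starts in the RefSeq table are given because its probes name different transcripts, although the table does not say which start belongs to which transcript. No capitals appear, since neither window held an E-box, ACGTG or E2F site as spelled above. They lie on the minus strand of GRCm38.p6, the first at chr10:62340422-62340671 and the second at chr10:62379909-62380158.
Hk1 start 1: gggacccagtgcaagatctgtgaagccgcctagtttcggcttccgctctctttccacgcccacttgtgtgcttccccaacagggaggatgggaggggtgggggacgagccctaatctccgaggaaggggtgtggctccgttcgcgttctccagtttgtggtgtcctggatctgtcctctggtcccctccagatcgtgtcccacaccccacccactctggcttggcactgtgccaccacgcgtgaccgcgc
Hk1 start 2: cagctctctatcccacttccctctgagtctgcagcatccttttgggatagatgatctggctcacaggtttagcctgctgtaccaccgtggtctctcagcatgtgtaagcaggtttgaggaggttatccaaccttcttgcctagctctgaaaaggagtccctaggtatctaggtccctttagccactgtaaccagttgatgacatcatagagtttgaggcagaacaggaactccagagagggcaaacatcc
The G and C content was 62.8% in the first and 49.6% in the second, beside a median of 52.4% over all windows.

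Hk2, the hexokinase of muscle and fat, was the only gene of the list that was not well above background on every array. It read -3.36 on control array 1 and -5.48, the value not well above background, on control array 2, with -4.70 and -5.25 in the Rb-deficient mice. Both Rb-deficient values lay between the control values, which lay 2.12 apart. The difference was -0.56 with an interval from -2.86 to 1.74 (limma, adjusted p 0.888), and it was 0.50 without control array 1 and 0.04 with quantile normalization. Hk3, the hexokinase of white blood cells, differed by 0.35 and Hkdc1 by -0.11. Of these 4 hexokinase genes 2 were lower in mean, 1 with median scaling and 0 with quantile normalization, and 0 passed.

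**Figure D2:**
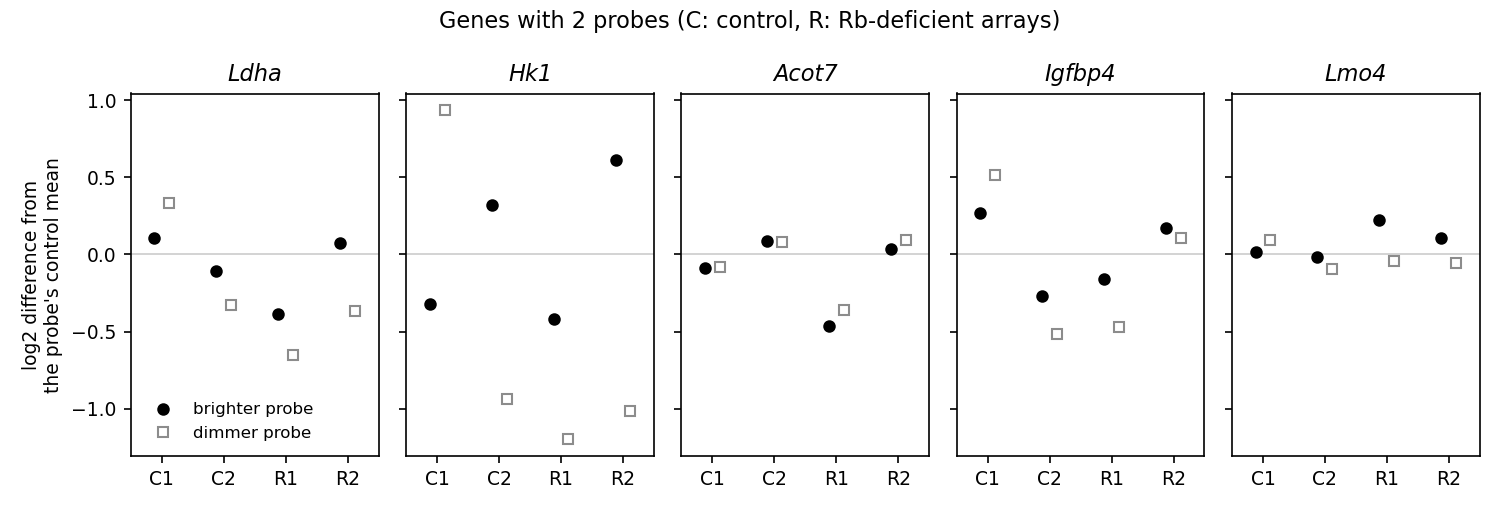
The 5 disallowed genes with 2 probes, with the log2 difference of each array from the probe's own control mean on the vertical axis and the arrays on the horizontal axis. Filled circles are the brighter and open squares the dimmer probe. The probes follow each other for Acot7, while for Hk1 the dimmer probe is high on control array 1 alone.

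Rest encodes the repressor that silences neuronal genes outside neurons, and beta cells, which use many of the same genes for secretion, keep it low. Its only probe read -3.13 and -3.19 in the control mice, against -3.91 and -3.42 in the Rb-deficient mice. The controls lay within 0.07 of each other and both Rb-deficient values were below them. The means were -3.16 ± 0.05 and -3.66 ± 0.35 (SD, n = 2 each), a difference of -0.50 with a standard error of 0.25, or 1.42-fold lower. Its interval ran from -1.20 to 0.20 and its adjusted p in limma was 0.863, although it had the smallest p of the 10 genes. The difference was -0.25 without Rb-deficient array 1 and -0.75 without array 2, and -0.06 with median scaling.

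Genes that REST is known to repress went both ways. Of 16 such genes expressed in neurons and endocrine cells, 9 were lower and 7 higher in mean, with a median difference of -0.07, beside -0.07 for all genes, and 0 passed. With median scaling 2 of 16 were lower. Cplx1, complexin 1, read -2.76 and -2.69 in controls and -3.76 and -3.10 in Rb-deficient islets, a difference of -0.71. Nrcam, a neuronal adhesion molecule, read 0.53 and 0.01 in controls and 1.11 and 0.83 in Rb-deficient islets, a difference of 0.70. Stmn2, a neuronal stathmin, differed by -0.61 and the granule protein gene Scg2 by -0.40. The groups did not overlap for 8 of the 16, with Rb-deficient values lower for 4 and higher for 4, beside 20.7% and 15.3% of all genes. Of 10 genes of the repressor complex, Rest included, 2 were lower in mean and 0 passed. The corepressor and histone-modifying genes Hdac1, Kdm1a, Rcor2 and Rcor1 differed by 0.34, 0.27, 0.41 and 0.16.

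Oat, Cat and Acot7 are enzymes. Oat encodes ornithine aminotransferase of mitochondria, which links ornithine to glutamate and proline. It read 1.21 and 1.08 in the control mice, against 0.49 and 0.93 in the Rb-deficient mice, with no overlap. The means were 1.15 ± 0.09 and 0.71 ± 0.31 (SD, n = 2 each), a difference of -0.44 with an interval from -1.11 to 0.23, or 1.36-fold lower (limma, adjusted p 0.863). The gap between the Rb-deficient mice, 0.44, was as large as the difference. Of 8 measured genes of ornithine and proline metabolism 6 were lower in mean, 2 with median scaling, and 0 passed. Prodh, proline dehydrogenase, read -0.18 and -1.02 in controls and -1.37 and -2.76 in Rb-deficient islets, a difference of -1.46 with a standard error of 0.61 (limma, unadjusted p 0.0787). Aldh4a1, the next enzyme of proline breakdown, differed by -0.10 and Azin1, the antizyme inhibitor gene, by -0.12.

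Cat encodes catalase, the peroxisomal enzyme that breaks down hydrogen peroxide and is scarce in beta cells. It read -1.93 and -1.68 in the control mice, against -2.43 and -1.98 in the Rb-deficient mice. Both Rb-deficient values were below both controls. The difference was -0.40 with an interval from -1.11 to 0.31, or 1.32-fold lower (limma, adjusted p 0.863), and 0.04 with median scaling. Of 15 genes of enzymes against peroxide and superoxide, Cat included, 4 were lower and 11 higher in mean, 1 of 15 lower with median scaling. For 8 of the 15 the groups did not overlap and the Rb-deficient values were higher, beside 15.3% of all genes. For 2 of the 15, Cat included, they were lower without overlap, beside 20.7% of all genes. The list was not tested as a set. Gpx3, the secreted glutathione peroxidase, read 3.33 and 3.82 in controls and 2.72 and 2.84 in Rb-deficient islets, a difference of -0.80 (limma, unadjusted p 0.0344, adjusted p 0.835). Txn1, thioredoxin, Prdx2, a peroxiredoxin, and Txnrd1, thioredoxin reductase, differed by 0.32, 0.34 and 0.29. None of the 15 passed the adjusted test.

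Acot7 encodes a thioesterase that splits long-chain acyl-CoA and is best known from brain. It read 0.11 and 0.29 in the control mice, against -0.26 and 0.23 in the Rb-deficient mice. Rb-deficient array 2 lay between the controls, so the groups overlapped. The difference was -0.21 with an interval from -0.94 to 0.51 (limma, adjusted p 0.871), 0.22 with median scaling and 0.03 without Rb-deficient array 1. Its second probe, for another transcript, had the same order of the 2 Rb-deficient arrays and differed by -0.13. Of 10 measured acyl-CoA thioesterases 5 were lower in mean, 0 with median scaling, and 0 passed. Acot13 and Acot11 differed by 0.28 and -0.36.

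The last members act outside fuel metabolism. Igfbp4 encodes a secreted protein that binds insulin-like growth factors and limits their action. It read -1.94 and -2.48 in the control mice, against -2.37 and -2.04 in the Rb-deficient mice, with both Rb-deficient values inside the range of the controls. The difference was 0.01 with an interval from -0.80 to 0.81 (limma, adjusted p 0.997), and its second probe differed by -0.18. A change past 2-fold in either direction is thus outside the interval of the brighter probe. The interval of the second probe, from -1.47 to 1.10, reaches past 2-fold in both directions. Of 5 measured IGF binding protein genes 1 was lower in mean and 0 passed. Igfbp6 differed by -1.10, Igfbp3 by 0.50 and Igfbp5 by 0.44.

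Lmo4 encodes a LIM-only adaptor that bridges transcription factors without binding DNA. It had the smallest standard error of the list, with 0.31 and 0.28 in the control mice, against 0.52 and 0.40 in the Rb-deficient mice. Both Rb-deficient values were above both controls. The means were 0.29 ± 0.02 and 0.46 ± 0.08 (SD, n = 2 each), a difference of 0.17 with a standard error of 0.18 and an interval from -0.33 to 0.66 (limma, adjusted p 0.868). The second probe, for the same accession, differed by -0.05 and did not share the separation. Of the 8 LIM-only factors and partners 7 were higher in mean and 0 passed. Lmo1 read 0.02 and -0.13 in controls and 0.50 and 1.57 in Rb-deficient islets, a difference of 1.09 (limma, unadjusted p 0.066, adjusted p 0.863). Lmo2, a blood and vessel factor, differed by 0.52.

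**Figure D3:**
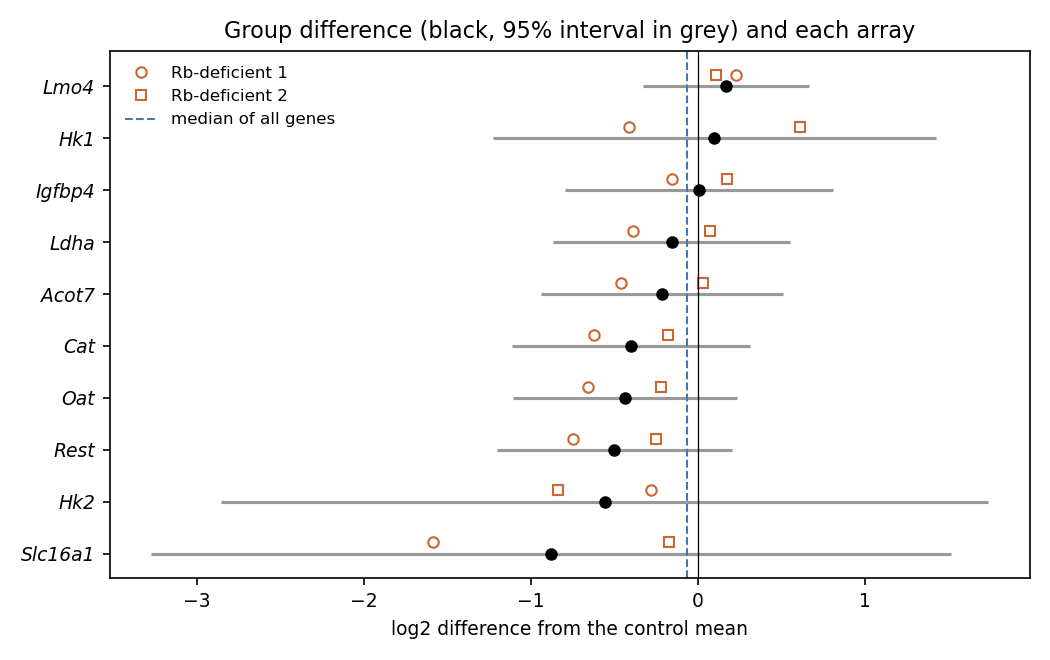
Log2 difference from the control mean for each disallowed gene, with the difference of the group means as black points, its 95% interval from limma as grey lines and each Rb-deficient array as an open symbol. The dashed line is the median of all genes, -0.07. Every interval spans 0, and array 1 (circles) lies left of array 2 (squares) for 8 of the 10 genes.

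The clearest pattern in the list was between the Rb-deficient arrays rather than between genotypes. Each mouse had 1 array, so mouse, preparation and array cannot be told apart. Rb-deficient array 1 had the lowest value of the 4 arrays for 7 of the 10 genes, Ldha, Slc16a1, Hk1, Rest, Acot7, Oat and Cat, where 18.4% of all genes had their lowest value on that array. The count was also 7 of 10 with normexp and with quantile normalization, beside 13.3% and 15.8% of all genes. With median scaling it was 3 of 10, beside 7.49% of all genes. Control array 1 had the highest value for 6 of the 10, where 40.1% of all genes peaked on that array. Array 1 lay below array 2 for 8 of the 10 genes, where 44.1% of all genes did, and the median gap of the 10 was -0.45, against 0.06 over all genes. The median of the 10 genes relative to the control mean was -0.44 on Rb-deficient array 1 and -0.07 on array 2. Leaving out the other Rb-deficient array gives these same medians by construction. Against the control mean, 9 of 10 genes were lower on array 1 and 5 of 10 on array 2. The lower values in the Rb-deficient group were thus most marked on 1 array. On the 75th percentile scale Rest, Oat and Cat were below both controls on Rb-deficient array 2 as well. With median scaling that no longer held, and their groups overlapped. Control array 1 also had a part in the group differences. Without it the median was -0.14, with 6 of 10 genes lower, and the difference was 0.02 for Slc16a1 and 0.50 for Hk2.

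A wider list of genes reported as low in islets showed the same order of the arrays. Of its 23 genes, none of them among the 10, 21 were measured, 16 were lower in mean and 0 passed, with a median difference of -0.12. With median scaling 5 of 21 were lower. Rb-deficient array 1 was the lowest of the 4 for 14 of the 21 (5 with median scaling), and its median relative to the control mean was -0.38, beside 0.04 on array 2. The groups did not overlap for 5 of the 21, all with lower Rb-deficient values, beside 20.7% of all genes, so this count is not read as a result about the list. Tst, the mitochondrial sulfurtransferase rhodanese, read -0.84 and -1.04 in controls and -2.08 and -2.12 in Rb-deficient islets, 2.23-fold lower with an interval of the log2 difference from -1.68 to -0.63 (limma, unadjusted p 0.00395, adjusted p 0.514). Igf1, the growth factor gene, read 1.24 and 1.06 in controls and 0.03 and -0.85 in Rb-deficient islets, 2.94-fold lower (limma, unadjusted p 0.0147, adjusted p 0.717). Mgst1, a membrane glutathione transferase, differed by -0.65 and Yap1, the Hippo pathway coactivator, by -0.37.

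**Figure D4:**
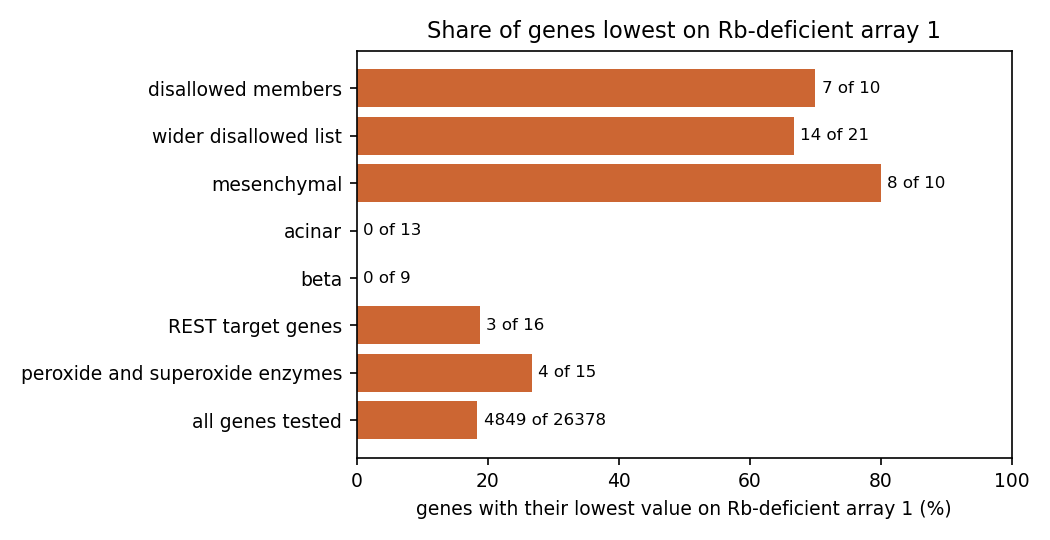
Share of genes, in percent, whose lowest value of the 4 arrays was on Rb-deficient array 1, for gene lists and for all genes tested, with counts beside the bars. The disallowed genes, the wider list and the mesenchymal markers have 7 of 10, 14 of 21 and 8 of 10, against 18.4% of all genes, and 3, 5 and 5 with median scaling, against 7.49%.

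Markers of mesenchymal cells were also lower on Rb-deficient array 1 than on array 2. Of 11 such genes 10 were measured, all 10 were lower on Rb-deficient array 1 than on array 2 and 8 of 10 had their lowest value on array 1, or 5 of 10 with median scaling. Their median relative to the control mean was -0.57 on array 1 and 0.50 on array 2, and their summed linear signal, relative to the 75th percentile, was 9.74 and 11.1 in the control mice, against 9.14 and 16.0 in the Rb-deficient mice. Pdgfra, a defining marker of these cells that is also in the wider list, was not well above background on any array. Their part in the values of the disallowed genes was not tested.

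Markers of other cell types differed in which Rb-deficient array was lower. All 13 acinar markers were lower in mean, 11 with quantile normalization and 9 with median scaling, 0 of 13 had their lowest value on Rb-deficient array 1, and their medians were -0.22 and -1.01 on Rb-deficient arrays 1 and 2. Macrophage and dendritic markers stood at 0.32 and 1.21, with 10 of 11 higher in mean, and endothelial markers at 0.01 and 0.38, with all 8 higher in mean (7 with quantile normalization). Ductal markers stood at -0.34 and -0.47 and the 9 beta cell markers at 0.10 and -0.09. Alpha cell markers stood at -0.58 and -1.22. The 5 delta and PP cell markers stood at -1.08 and -0.02, with 3 of 5 lowest on array 1, and the 3 measured blood markers at -0.22 and 0.92, so that these, like the macrophage and endothelial markers, lay lower on array 1 than on array 2. The part of these cell types in the values of the disallowed genes was not tested either.

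**Figure D5:**
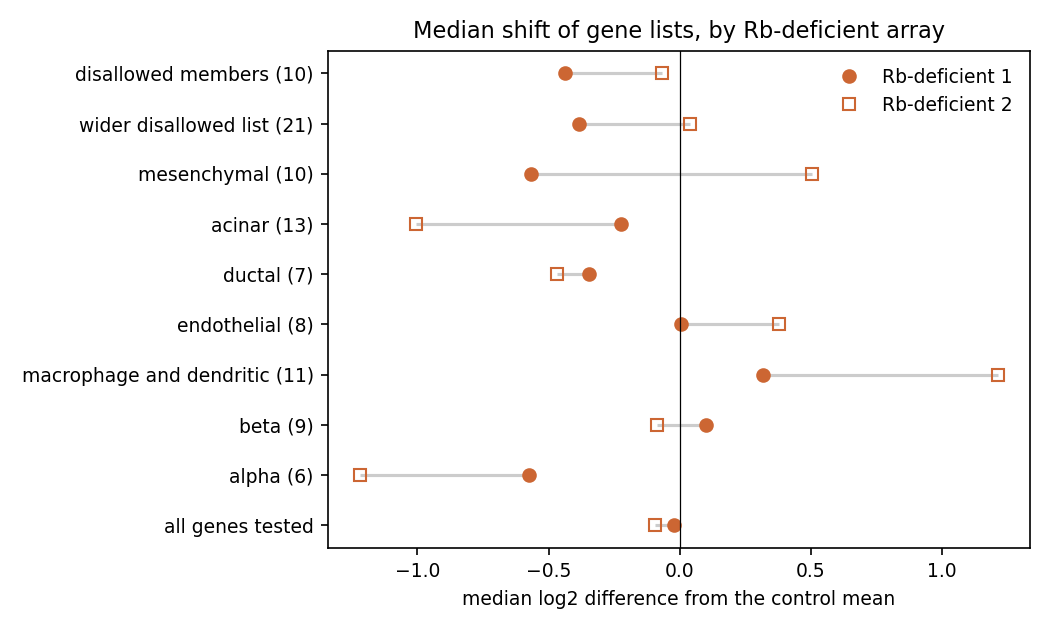
Median log2 difference from the control mean on Rb-deficient array 1 (filled circles) and array 2 (open squares) for the disallowed genes, the wider list, markers of cell types and all genes tested, with the number of genes tested in parentheses. The disallowed genes and the wider list lie lower on array 1, as do the mesenchymal markers, while acinar and alpha markers lie lower on array 2.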

How the data were processed

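RNA of isolated islets from 2 control and 2 Rb-deficient mice was measured on single-colour Agilent arrays. The deposited intensity values were made with Agilent Feature Extraction 12.0.3.1, per the file headers, and the processed signal is background-subtracted and detrended without scaling between arrays. The arrays shared 1 slide, so slide could not be fitted as a block. No spot was saturated. The authors' deposited value table, intensity values too, equals the processed signal times a constant per array, 2.44 and 2.15 for controls and 2.49 and 1.74 for Rb-deficient arrays, with medians of 220, 181, 188 and 157. What set the constants is unknown, and it served as an alternative.

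Here control spots and outlier-marked spots (64 to 93 per array) were left out, processed signals were put on the log2 scale, the 75th percentile of each array's non-control spots was subtracted, and repeated spots were averaged by probe. Probes were named by RefSeq accession (GRCm38.p6 table, 58.3% of probes named). The design names the mm9 build, so no probe coordinates are given. Probes entered the test when 1 group or both had them well above background on each of its arrays (33848 probes), and the brightest kept probe stood for its gene, in all alternatives except where probes were averaged. limma 3.58.1 in R 4.3.3 (lmFit, eBayes, two-sided, no covariates) compared the groups, with Benjamini-Hochberg adjustment and a threshold of 0.05. The code was run on simulated data with the same spread for every gene, unlike the real arrays. That run checks the code and does not gauge error rates here. The smallest p of an exact permutation test of 2 against 2 is 0.333, so none was run. The number of arrays limits the precision. That the mice are separate rests on the series' design text.

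Members and lists were chosen with earlier results of these data known, and the wider list, the families and the markers were compiled from general knowledge. All members are named, and of each list some of the 4 other genes with the smallest p. The files hold no mean spot signal, so normexp correction used the median one. Promoter sequences are RefSeq's, and Rest had no entry among them. The values of 1 gene of the families are not reported here.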

Additional observations from a re-analysis of the deposited data

How the results depend on the processing

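In 18 alternatives no disallowed gene passed the adjusted test in limma, the lowest adjusted p being 0.150 for Hk2 without control array 2 and with the filter applied anew. The count over all genes was 480 with scaling to the array median (234 higher, 246 lower) and otherwise 0, except without 1 array. In the median-scaled fit the p values of the disallowed genes followed the size of their differences alone. A gene's own spread had no visible part there, so the 480 are not read as stronger evidence. Leaving out an array in turn gave 0 each time with the genes tested kept, and 0 to 4101 when the filter on dim probes was applied anew, an alternative added after the data were seen. The 4101, of which 4084 lower, came without control array 2, when probes with signal in a single control mouse enter the test. In these fits the lone array of a group is assumed to vary like the other group.

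The median of the 10 genes was -0.181 with normexp, -0.0981 with quantile normalization and 0.130 with median scaling, where 4 genes were lower in mean. Without 1 array it ran from -0.439 to -0.0694, with 5 to 9 genes lower, with -0.0694 without array 1 of the Rb-deficient group and -0.136 without array 1 of the controls. Signs turned for Acot7 (0.223), Cat (0.0376) and Ldha (0.280) with median scaling, which adds a constant to every difference, for Hk2 with quantile normalization (0.0392), for Hk1 (-0.505) and Igfbp4 (-0.0876) with averaged probes, and for Igfbp4 with normexp (-0.0499) and the deposited table (-0.0230). Apart from the constant of median scaling, the cause was not tested. Without 1 array the difference ran from -0.463 to 0.0328 for Acot7, -0.416 to 0.611 for Hk1 (-0.221 without control array 1), -1.62 to 0.501 for Hk2, -0.261 to 0.275 for Igfbp4 (-0.158 without Rb-deficient array 2), -0.388 to 0.0727 for Ldha and -1.78 to 0.0215 for Slc16a1. Lmo4, Oat and Rest kept their sign, but Rest was near 0 with quantile normalization (-0.000951) and Oat with median scaling (-0.000576). With the replicate number as a block, which pairs mice by number only, the calls stayed at 0 and the median at -0.308, and deviations of same-numbered arrays correlated at 0.295 over genes.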
